A study of Mus musculus with 9 samples.

Results

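Among CD45+ CD11b+ cells sorted from the retina of Arr1-/- mice, 244 of 851 cells that passed quality control, out of 1365 different cell barcodes, carried transcripts of both the MHCII genes and the microglial genes. A cell was selected on its counts of unique molecular identifiers (UMIs, each standing for a captured transcript). It needed at least 200 detected genes, under 10% mitochondrial UMIs, at least 3 UMIs summed over 4 pan-myeloid genes (Ctss, Fcer1g, Laptm5 and Tyrobp), at least 2 UMIs over 4 MHCII genes (H2-Aa, H2-Ab1, H2-Eb1 and Cd74), and at least 1 UMI over 8 microglial genes (P2ry12, P2ry13, Siglech, Tmem119, Sparc, Cx3cr1, Gpr34 and Olfml3). Of the 748 pan-myeloid cells, the other 504 were 100 MHCII cells with no microglial UMI, 340 microglial cells under the MHCII threshold and 64 cells with neither. The 244 cells are referred to as both-transcript cells, since the depth check given further on did not set their microglial transcripts apart from background at every time point.

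Every group was made of female Arr1-/- mice, 2 to 5 months old and bred in constant darkness, a strain without visual arrestin whose photoreceptors die in light. Day 0 mice had no light exposure, and day 7 and day 20 mice were kept for 7 or 20 days in constant light of about 200 lux. There were 3 libraries of 10x Genomics 3′ single-cell RNA-seq per time point. No wild-type library was analysed here, so all 3 groups share the deletion, and the comparison is of time in light within it. The labels do not say which mice gave which library, so p-values measure only the spread between libraries, which may be technical.

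MHCII molecules are surface proteins made of an alpha and a beta chain that display peptides to CD4+ T cells, and professional antigen-presenting cells make them under the control of the transactivator Ciita. Microglia, the resident macrophages of the retina, are known for low MHCII and for a homeostatic program that includes P2ry12, Tmem119 and Siglech, whereas macrophages derived from blood monocytes are known to express MHCII more readily. The microglial set and the MHCII set are thus usually read as marks of different cells.

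Sag, the gene of visual arrestin, had 4 UMIs in the 244 cells. Ptprc, which encodes the CD45 antigen used in the sort, was detected in 50 of them and Itgam, which encodes CD11b, in 57.

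The libraries shared many of their barcodes. Each of the 36 pairs of libraries had 270 to 542 barcodes in common, and 202 of the 244 both-transcript cells (82.8%) had a barcode that also occurred in another library, 126 of them in all 9. For these cells the second-ranked library held, in the median, 18.2% as many UMIs as the first-ranked. Each barcode was therefore used only where its UMI total was highest, and the main results are also given for the libraries as deposited. As deposited, the same barcode counts in several libraries, so those libraries are not independent. Their p-values and counts of genes are given as a description. The libraries held 247290 to 441678 UMIs. The both-transcript cells numbered 8, 11 and 9 in the day 0 libraries, 114, 31 and 7 in the day 7 libraries, and 24, 30 and 10 in the day 20 libraries. Day 7 replicate 1 alone supplied 114 of the 152 cells of day 7.

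In the genome, the class II genes H2-Ab1, H2-Aa and H2-Eb1 lie next to each other on chromosome 17. H2-Ab1, the beta chain of I-A, spans chr17:34257689-34269419 on the plus strand, H2-Aa, its alpha chain, spans chr17:34282744-34287823 on the minus strand, and H2-Eb1, the beta chain of I-E, spans chr17:34305867-34316674 on the plus strand (GRCm38, GENCODE annotation). Their promoters carry the conserved S, X and Y boxes through which class II genes are switched on together, and they are 3 of the 4 MHCII genes of the selection. The fourth, Cd74, held 4142 of the 7586 MHCII UMIs of the selected cells. The windows below run from 100 bases before to 50 bases after the start site (RefSeq, GRCm38.p6), and capitals mark the Y box core CTGATTGG, an inverted CCAAT element.
H2-Aa: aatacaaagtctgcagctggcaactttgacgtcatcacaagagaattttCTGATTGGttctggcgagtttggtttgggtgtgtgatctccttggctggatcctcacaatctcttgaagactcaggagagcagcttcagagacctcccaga
H2-Eb1: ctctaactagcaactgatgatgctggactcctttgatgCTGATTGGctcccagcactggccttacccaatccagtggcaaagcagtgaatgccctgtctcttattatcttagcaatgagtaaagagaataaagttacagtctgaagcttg
The H2-Aa window covers chr17:34287774-34287923 on the minus strand with the motif starting 51 bases before the start site, and the H2-Eb1 window covers chr17:34305767-34305916 on the plus strand with the motif starting 62 bases before it. Searched on both strands (reverse complement CCAATCAG), these 8 letters occurred in 917 of 32851 promoters of the same length, or 2.79%. The match describes the sequence only.

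Both-transcript cells made up a larger share of pan-myeloid cells after light. Before light their share was 8.25% in replicate 1 (95% exact Clopper-Pearson interval 3.63 to 15.6), 10.3% in replicate 2 (5.24 to 17.7) and 12.7% in replicate 3 (5.96 to 22.7). At day 7 it was 59.1% (51.8 to 66.1), 43.1% (31.4 to 55.3) and 43.8% (19.8 to 70.1). At day 20 it was 35.8% (24.5 to 48.5), 31.9% (22.7 to 42.3) and 32.3% (16.7 to 51.4). Intervals cover counting error only. All 6 libraries after light lay above all 3 of day 0, and the 3 of day 7 lay above the 3 of day 20.

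The day 0 mean was 10.4% ± 2.22, the day 7 mean 48.6% ± 9.05 and the day 20 mean 33.3% ± 2.16 (SD over 3 libraries). The 6 libraries after light exceeded day 0 by 30.6 percentage points on average (two-sided exact permutation test over 84 splits, p = 0.0119, 0.0397 after Benjamini-Hochberg adjustment over 10 tests). Day 20 minus day 7 was -15.3 points, with an exact permutation p = 0.1, the smallest that 3 libraries against 3 can give. The libraries as deposited, with each barcode counted wherever it occurred, gave 9.42% ± 0.345, 35.6% ± 11.6 and 22.8% ± 1.78.

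The other classes moved with them. MHCII cells with no microglial UMI made up 0.967% ± 0.936, 25.4% ± 2.25 and 13.4% ± 7.24 of pan-myeloid cells on the 3 days. Microglial cells under the MHCII threshold made up 82.5% ± 5.71, 16.2% ± 5.06 and 40.3% ± 12.5. Both differed between day 0 and the libraries after light (differences of 18.4 and -54.2 points, adjusted p = 0.0397 each, exact permutation tests). Both classes with MHCII transcripts thus held larger shares after light, and cells with only microglial transcripts held a smaller one.

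**Figure D1:**
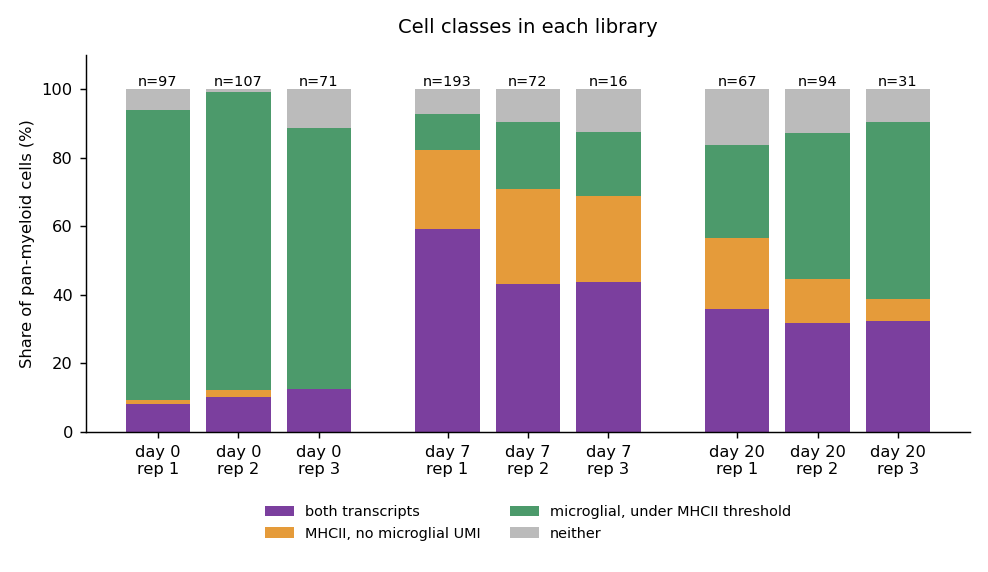
Stacked bars give the percentage of pan-myeloid cells in each of 4 classes for every library, with the number of cells above each bar. The lowest segment, cells with both sets of transcripts, lies between 8.25% and 12.7% at day 0 and between 31.9% and 59.1% after light.

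Depth differed between the classes. The median both-transcript cell held 1508 UMIs, compared with 979 in MHCII cells with no microglial UMI and 876 in microglial cells under the threshold, and a deeper cell has more chances to pass both thresholds. The difference was widest at day 0, where the medians were 2800.5 UMIs in both-transcript cells and 1029 in microglial cells. All cells were therefore also thinned to 612 UMIs, which left out 68 of 275 cells from day 0, 55 of 281 from day 7 and 64 of 192 from day 20 as too shallow.

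At this matched depth both-transcript cells were 2.37% ± 0.494 of the pan-myeloid cells before light, 23.5% ± 5.12 after 7 days and 19.4% ± 2.13 after 20 days (SD over 3 libraries). These shares stand for 5, 56 and 25 cells. The excess after light was 19.1 points (exact permutation p = 0.0119), and day 20 minus day 7 was -4.08 points (exact permutation p = 0.3). The rise after light was thus present with and without thinning, while most of the gap between day 7 and day 20 was not seen at equal depth. Cells outside the myeloid gate, those with under 3 pan-myeloid UMIs, give the background of the rule. At 612 UMIs, 0 of 29 of them met both thresholds at day 0 (upper limit of the exact interval 11.9%) and 2 of 15 after light (13.3%, exact interval 1.66 to 40.5), an interval that includes the pooled 81 of 354 pan-myeloid cells (22.9%, 18.6 to 27.6). At full depth at least 2 MHCII UMIs were present in 0 of 56 such cells at day 0 and in 13 of 47 after light (27.7%). What part of the rise this background makes up was not tested. In the deposited libraries with thinning, an alternative chosen after seeing the data, the shares were 3.67% ± 1.01, 19.6% ± 5.02 and 13.9% ± 3.10.

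A microglial UMI in an MHCII cell can also come from free RNA in the droplet, so its frequency was set beside that in cells that should lack it. At 612 UMIs per cell, 56 of 140 MHCII cells of day 7 held a microglial UMI (40.0%, exact interval 31.8 to 48.6), as did 25 of 42 of day 20 (59.5%, 43.3 to 74.4) and 5 of 8 of day 0 (62.5%). Cells with under 3 pan-myeloid UMIs, which lay outside the myeloid gate, held one in 17 of 44 cases (38.6%, 24.4 to 54.5) and, after light, in 7 of 15 (46.7%, 21.3 to 73.4). Among those outside the gate with at least 3 rod UMIs the share was 13 of 35 (37.1%). Median depths before thinning were 1278 UMIs in MHCII cells and 1021 outside the gate.

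Before thinning, the share of MHCII cells with a microglial UMI averaged 91.2% before light, 65.4% on day 7 and 72.6% on day 20, against 93.1%, 61.8% and 74.4% of pan-myeloid cells under the MHCII threshold.

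At matched depth the day 7 share in MHCII cells thus lay within the intervals of cells outside the gate, of which only 5 were from day 7, and by itself it does not set their microglial transcripts apart from background. The day 20 share was above that of cells outside the gate, but the intervals overlapped. Pan-myeloid cells under the MHCII threshold held a microglial UMI in 300 of 371 cases (80.9%), with 61.6% at day 7 and 82.6% at day 20. Among all cells outside the gate at full depth, 8 of 103 (7.77%, 3.41 to 14.7) met both the MHCII and the microglial threshold, all 8 of them among the 47 from libraries after light (17.0%). At day 0 it was 0 of 56 (upper limit of the exact interval 6.38%).

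**Figure D2:**
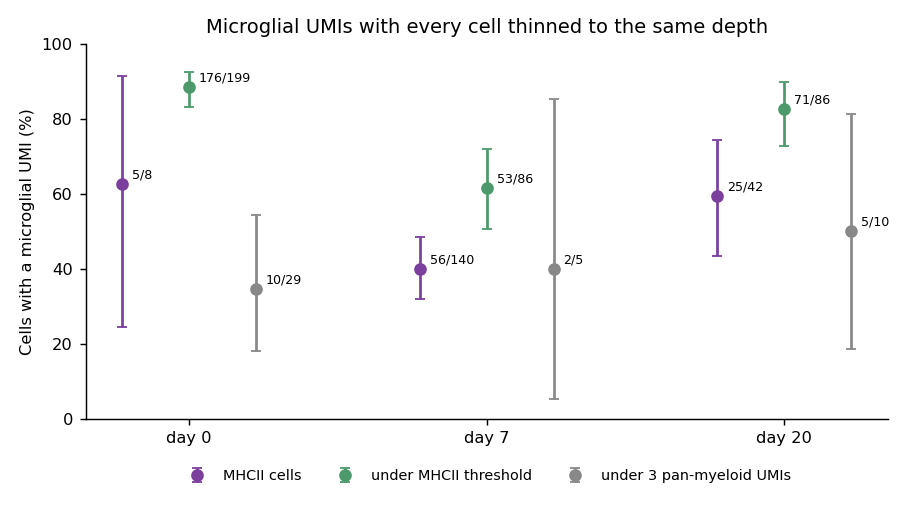
Points give the percentage of cells with at least 1 microglial UMI after every cell was thinned to 612 UMIs, with 95% exact intervals and cell counts, for MHCII cells, pan-myeloid cells under the MHCII threshold and cells with under 3 pan-myeloid UMIs. At day 7 the MHCII cells (40.0%) lie at the level of the cells with under 3 pan-myeloid UMIs, and below the cells under the MHCII threshold (61.6%).

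The summed level of the 8 microglial genes in MHCII cells, with or without a microglial UMI, was 6708, 5498 and 3731 CPM (UMIs scaled to a total of 1000000) in the day 0 libraries, 1417, 1374 and 1363 at day 7, and 4070, 5191 and 2616 at day 20. The day 7 libraries lay below all others. The difference between libraries after light and day 0 was -1.17 on the log2(CPM + 1) scale and did not pass the test (exact permutation p = 0.0952, adjusted p = 0.119), and in the libraries as deposited it was -0.13 (exact permutation p = 0.726). These 8 genes are part of the selection, so their levels are given as a description and no conclusion is drawn from the test. In pan-myeloid cells under the MHCII threshold the same sum was 6902 ± 1427, 2196 ± 450 and 3728 ± 720 CPM (SD, n = 3 each), also lowest at day 7.

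The genes of the selection are given as a description, since they chose the cells. Cd74, the invariant chain that guides MHCII molecules to the peptide-loading compartment, was the most frequent MHCII transcript, present in 93.9% of both-transcript cells. H2-Ab1 was present in 69.7%, H2-Aa in 58.6% and H2-Eb1 in 53.7%, and 83 cells (34.0%) held all 4. Pooled over the cells of a day, Cd74 went from 2238 CPM before light to 10705 on day 7 and 4393 on day 20, and H2-Aa from 272 to 2983 and 1154. A few cells carried much of these sums, the 5 richest holding 310 of the 373 MHCII UMIs of day 0 (83.1%), 2836 of 5713 on day 7 (49.6%) and 709 of 1500 on day 20 (47.3%). By library, the 4 MHCII genes summed to 485, 4394 and 5073 CPM before light, 21315, 9174 and 37584 CPM on day 7, and 9183, 4814 and 21843 CPM on day 20, so day 20 overlapped day 0. In MHCII cells with no microglial UMI, Cd74 reached 16851 CPM, more than the 7052 CPM of both-transcript cells.

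Of the pan-myeloid genes, Ctss was present in 98.8%, Tyrobp in 95.1%, Fcer1g in 90.2% and Laptm5 in 64.3%.

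On the microglial side, Sparc, which encodes a secreted matrix-binding glycoprotein, was the most frequent. It was present in 54.1% of both-transcript cells and was the sole microglial gene in 36 of them. Olfml3 followed with 48.8%, the fractalkine receptor gene Cx3cr1 with 38.5%, Tmem119 with 29.5% and P2ry12, the receptor that directs microglial processes toward nucleotides, with 29.1%. Gpr34, Siglech and P2ry13 were present in 27.9%, 23.8% and 11.5%. Of the day 0 cells 64.3% held P2ry12, of the day 7 cells 19.7% and of the day 20 cells 35.9%, with pooled levels of 658, 154 and 358 CPM.

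The cells were uneven. MHCII UMIs ranged from 2 to 739 per cell with a median of 5, and microglial UMIs reached 131 with a median of 3. At day 0 the median cell held 2.5 MHCII and 14 microglial UMIs, at day 7 it held 5 and 2, and at day 20 it held 6.5 and 4. The median day 0 cell was thus near the MHCII threshold and the median day 7 cell near both, while 51 of the 152 day 7 cells (33.6%) held 10 or more MHCII UMIs.

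Many cells lay at the edge of a threshold. Exactly 1 microglial UMI was found in 72 cells (29.5%), 56 of them from day 7, and exactly 2 MHCII UMIs in 60 cells, 15 cells being at both limits. Just outside stood 108 cells with a microglial UMI and exactly 1 MHCII UMI, and the 100 MHCII cells with no microglial UMI. Only 7 cells had exactly 3 pan-myeloid UMIs, and 5 others fell short by 1 such UMI. UMIs of at least 2 different microglial genes were present in 148 cells (60.7%) and of at least 3 in 79.

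The cell with the most MHCII UMIs came from day 7 replicate 1. It held 739 of them among 8782 UMIs, beside 4 microglial UMIs and 86 UMIs of monocyte and macrophage genes. It also held 15 UMIs of dendritic cell markers and 5 of T and NK cell markers. With at least 3 lymphocyte UMIs, it was among the cells counted below as holding markers of other cell types.

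**Figure D3:**
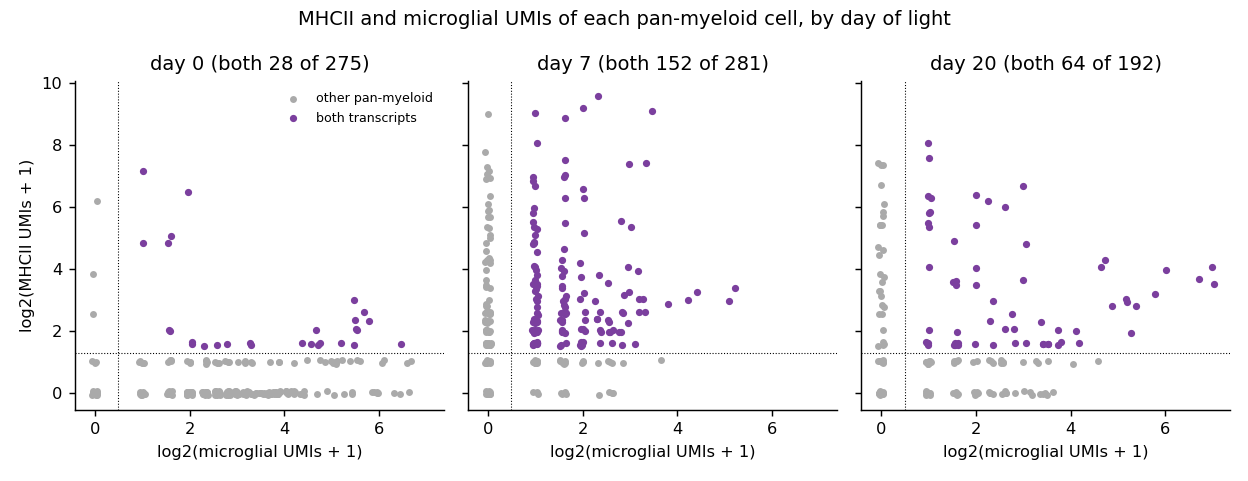
Each point is a pan-myeloid cell, with log2(microglial UMIs + 1) on the horizontal and log2(MHCII UMIs + 1) on the vertical axis, slightly jittered, for day 0, 7 and 20. Dotted lines mark the thresholds, and the coloured points are the 28, 152 and 64 both-transcript cells, which at day 0 have a median of 14 microglial and 2.5 MHCII UMIs, with 5 cells at 10 or more MHCII UMIs, and at day 7 a median of 2 microglial and 5 MHCII UMIs.

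Markers outside the selection are given by day, since the classes differ in the days their cells come from. Csf1r, the receptor for colony-stimulating factor 1, stood at 1624, 601 and 1651 CPM in both-transcript cells on the 3 days, and at 1875, 739 and 1232 CPM in microglial cells under the threshold. In MHCII cells with no microglial UMI it stood at 255 CPM at day 7 and 548 CPM at day 20, and day 0 had only 3 such cells. The pooled level in both-transcript cells was thus above that in MHCII cells with no microglial UMI on both days after light, and below or above that in microglial cells depending on the day.

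Lyz2, the lysozyme gene of monocytes and macrophages, stood at 825, 6930 and 2089 CPM in both-transcript cells and at 1058, 4959 and 2682 CPM in microglial cells, with no constant order. In MHCII cells with no microglial UMI it was higher, at 8648 CPM at day 7 and 5574 CPM at day 20. Ms4a7, a membrane protein gene of macrophages, stood at 615 and 251 CPM in both-transcript cells at day 7 and day 20, between 211 and 156 CPM in microglial cells and 696 and 548 CPM in MHCII cells with no microglial UMI. Within libraries, the Lyz2 difference from microglial cells was 0.17 ± 0.21 on the log2 scale (edgeR adjusted p = 0.668) and that from MHCII cells with no microglial UMI was -0.61 ± 0.30 (edgeR adjusted p = 0.408), so neither passed.

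Several markers of freshly recruited monocytes and of dendritic cells were detected in few of the cells. Ccr2, the receptor by which monocytes leave the bone marrow, had 16 UMIs in 10 of the 244 cells and Ly6c2 had 7 in 3 cells. Flt3, a receptor of dendritic cell precursors, had 7 in 3 cells and Ccr7 had 8 in 7 cells. In the 340 microglial cells under the threshold, Ccr2 had 0 UMIs, Ly6c2 had 2, Flt3 had 0 and Ccr7 had 1. In the 100 MHCII cells with no microglial UMI they had 3, 0, 2 and 45. Cd209a of the dendritic cell list, Cd163 and Lyve1 of the monocyte and macrophage list and Ly6g of the neutrophil list were at 0. For each this allows at most 3 of the 587386 UMIs of the both-transcript cells. Sall1, a transcription factor of microglia, was also sparse, with 15 UMIs in these cells and 16 in microglial cells under the threshold. Adgre1, which encodes F4/80, had 126 UMIs in 82 of the both-transcript cells.

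Some of the cells carried markers of other cell types. The T and NK cell markers summed to 257 UMIs in 41 cells, with Ms4a4b the most abundant at 46, and 195 of these UMIs were in day 7 replicate 1. B cell markers summed to 55 UMIs, of which 43 were in day 0 replicate 2, neutrophil markers to 53 UMIs, most from Csf3r, and dendritic cell markers, including the rule gene Siglech, to 366. Lens crystallins summed to 2915 UMIs, 2737 of them in day 7 replicate 1. Single cells carried much of these sums, with 2445 of the crystallin, 42 of the B cell and 83 of the T and NK cell UMIs each in 1 cell. Rod markers summed to 1848 UMIs, 878 of them in 1 cell, and stood at 6362, 2850 and 28560 CPM in the day 0 libraries against at most 2126 CPM in any library after light. Müller glia markers summed to 837 UMIs, most from Glul and 327 in 1 cell.

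In all, 21 of the 244 cells held at least 3 lymphocyte UMIs or at least 20 lens, rod or Müller glia UMIs. Day 0 had 11 of them among 28 cells, day 7 had 8 among 152 and day 20 had 2 among 64, with a median depth of 6778 UMIs against 1415 in the rest. Without such cells, a step chosen after seeing the data, the share of both-transcript cells still rose by 33.2 points after light (exact permutation p = 0.0119). Whether these cells are doublets was not tested.

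Both-transcript cells were compared with the other classes within the same libraries, using UMI sums per library and class and edgeR's quasi-likelihood test with library as a block. Genes outside the selection were read in the same cells that it chose, so these results describe the classes and do not support them. Against MHCII cells with no microglial UMI, only 4 libraries held at least 5 cells of both classes. Of 528 genes tested, 1 passed (0.189%), and 67 had an unadjusted p under 0.05 by edgeR.

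Csf1r stood at 740 CPM in both-transcript and 257 CPM in the other cells of day 7 replicate 1, and at 949 and 164 CPM in replicate 2. At day 20 it stood at 2597 and 475 CPM in replicate 1, and at 2552 and 829 CPM in replicate 2. It was higher in both-transcript cells in 4 of 4 libraries, while 158 of the 528 genes (29.9%) had the same sign in all 4, and its log2 difference of 1.96 ± 0.31 missed the threshold (edgeR adjusted p = 0.0622). Lgmn, a lysosomal protease that processes antigens and the invariant chain, had a log2 difference of 1.09 ± 0.19 (edgeR adjusted p = 0.0908) and Jun of 2.76 ± 0.59 (adjusted p = 0.217). Among the genes with the smallest p in the other direction, none past the test, were Gm10073, Fth1 and Rplp1, with log2 differences of -0.59, -0.56 and -0.48.

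The 11 homeostatic microglia genes tested outside the selection had a median log2 difference of 0.94 against 0.06 over all genes tested. No member of the following lists passed. The medians were 0.57 for 16 disease-associated microglia genes, -0.31 for 6 monocyte and macrophage genes, 1.73 for 5 chemokines, 1.65 for 9 immediate-early genes, 0.44 for 7 genes of class I presentation and 0.88 for 3 genes of class II presentation outside the rule. Leaving out any of the 4 libraries gave 0 calls (34 to 75 genes at an unadjusted p under 0.05, edgeR). In the libraries as deposited 206 genes passed, but there the same barcodes enter several libraries, so the library sums are not independent.

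Against microglial cells under the MHCII threshold, both-transcript cells had higher levels of several inflammatory genes and chemokines. In 8 libraries with at least 5 cells of both classes, 11 of 437 genes passed (2.52%), and all 11 were higher in both-transcript cells. Of the 437 genes, 19 (4.35%) had the same sign in all 8 libraries. Those that passed were the chemokines Ccl3 and Ccl4, the lipopolysaccharide co-receptor gene Cd14, the activation marker gene Cd83, Ier2, Ier3, Nfkbiz, Btg1, Rap1b and the survival genes Bcl2a1b and Bcl2a1d.

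Ccl3 (chr11:83647844-83649355, minus strand), which encodes the chemokine MIP-1 alpha, stood at 22960, 11711 and 33600 CPM in both-transcript cells of the day 0 libraries, against 4769, 7372 and 9029 CPM in microglial cells of the same libraries. At day 7 it stood at 1755 and 1115 CPM in replicates 1 and 2, against 958 and 322 CPM. At day 20 it stood at 5249, 11182 and 1742 CPM, against 465, 1521 and 611 CPM. It was higher in 8 of 8 libraries, with a log2 fold change of 1.90 ± 0.27 (SE, edgeR adjusted p = 0.00226).

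Cd83 (chr13:43784775-43803132, plus strand), a glycoprotein of activated antigen-presenting cells that steadies MHCII at the cell surface, was also higher in 8 of 8 libraries. Its levels were 2308, 4057 and 2083 CPM at day 0 against 974, 1691 and 1562 CPM. They were 742 and 285 CPM at day 7 against 261 and 214 CPM. At day 20 they were 1441, 2356 and 944 CPM against 186, 408 and 204 CPM, which were the widest gaps as ratios. The log2 fold change was 1.44 ± 0.27 (edgeR adjusted p = 0.00869).

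Cd14 was higher by 2.00 ± 0.40 on the log2 scale (edgeR adjusted p = 0.0151) and in 8 of 8 libraries. It stood at 1961, 2859 and 855 CPM in both-transcript cells at day 0 against 667, 1369 and 781 CPM in microglial cells. At day 7 it stood at 469 and 804 CPM, where microglial cells had 0 UMIs in both libraries. At day 20 it stood at 3345, 3487 and 1815 CPM against 186, 371 and 204 CPM. A test of whether a class difference was itself larger after light was added after seeing the data. Its edgeR interaction term for Cd14 was 2.63 ± 0.55 on the log2 scale and did not pass (adjusted p = 0.114). Of 437 genes 0 passed it by edgeR, and 30 had an unadjusted p under 0.05.

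**Figure D4:**
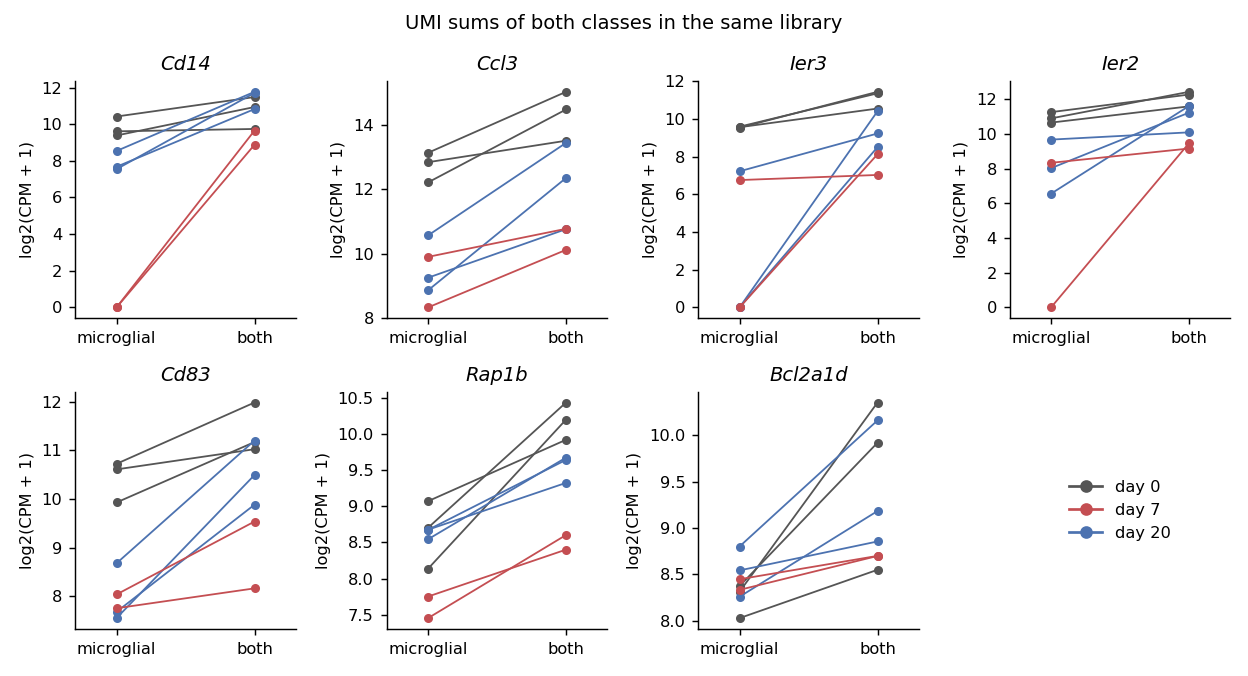
For 7 genes that were higher in both-transcript cells than in microglial cells in 8 of 8 libraries, lines join log2(CPM + 1) of both classes in the same library, coloured by day. The lines of every panel run upward, and points at 0 are classes with no UMI of the gene.

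By list, 3 of 8 inflammatory and NF-kB genes passed (Cd83, Ier3 and Nfkbiz), with a median log2 difference of 1.34 against -0.01 over all genes tested. Among chemokines 2 of 4 passed (median 1.63), and among immediate-early genes 1 of 13 (Ier2, median 0.93). None of 13 homeostatic genes (median 0.03), 11 disease-associated genes (0.01), 5 class I genes (0.29) or 3 monocyte and macrophage genes (0.19) passed. Depth moved with this comparison, since both-transcript cells were the deeper class. With classes assigned after thinning, 0 genes passed by edgeR (21 had an unadjusted p under 0.05), and the log2 differences were also smaller, at 0.59 for Ccl3, 0.89 for Cd14, 0.30 for Cd83, 0.52 for Ier2 and 0.40 for Ier3. In the libraries as deposited they were 0.62, 0.38, 0.66, 0.24 and 0.24, of which that of Cd83 passed (edgeR adjusted p = 0.0256). Those libraries share barcodes, so this p-value does not rest on independent libraries. Without day 0 replicate 3 or day 20 replicate 2, 5 genes passed in each case. When single libraries were left out, Ccl3, Cd83 and Rap1b passed in all 8 fits. Cd14 passed in 7 of 8 (edgeR adjusted p up to 0.0624), Ier2 in 6 (up to 0.0912) and Bcl2a1d in 4 (up to 0.114). The part of depth in these differences was not tested further.

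Within both-transcript cells, Ms4a7, Lyz2 and Apoe rose after light in the main fit, and most of the immediate-early and inflammatory genes tested fell. Across 9 libraries, 96 of 581 genes passed for the mean of day 7 and day 20 against day 0 (16.5%), 10 of them higher (1.72%) and 86 lower (14.8%). The libraries of day 0 did not overlap those after light for 8 genes that rose and 45 that fell, and for 86 of the 581 genes tested. Day 7 by itself differed from day 0 for 118 genes (20.3%). Day 20 differed from day 0 for 0 genes by edgeR (82 had an unadjusted p under 0.05), and no other tool was run on that contrast.

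The count was smaller without the cells that held markers of other cell types, which were 11 of the 28 cells at day 0, so that fewer cells also entered the fit. Without them 4 of 690 genes passed. Of the 96 genes, 87 were tested again, 86 kept their direction and 4 passed, all of them lower. The libraries as deposited gave 12 genes, and an MHCII threshold of 4 UMIs gave 1, again all lower. No gene passed as higher in any of these settings, Ms4a7, Lyz2 and Apoe included. The values below are given with that limit.

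Ms4a7 (chr19:11321039-11336146, minus strand) had the largest rise among genes whose libraries did not overlap. It stood at 0, 0 and 47.6 CPM at day 0, at 913, 393 and 823 CPM at day 7, and at 375, 289 and 536 CPM at day 20. All 6 libraries after light exceeded all 3 of day 0 (log2 fold change 4.98 ± 0.84, SE, edgeR adjusted p = 0.00434). The day 0 cells held 1 UMI of it among 113940, against 223 among 473446 after light, a ratio of 53.7 with a counting interval of 9.53 to 2129. Without day 0 replicate 3, which held that UMI, the log2 fold change was 7.71, and without the cells that carried other markers it was 3.59 (adjusted p = 0.128). Over 24 alternatives it ranged from 0.45 to 7.94 and passed in 20. Ms4a7 moved the same way in microglial cells under the threshold. Pooled by day, it stood there at 13.1, 211 and 156 CPM, from 5, 6 and 10 UMIs.

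Apoe (chr7:19696109-19699188, minus strand), the lipid carrier apolipoprotein E and a leading gene of disease-associated microglia, stood at 2698, 2724 and 21579 CPM at day 0. It stood at 99325, 122867 and 148298 CPM at day 7 and at 47893, 40949 and 151324 CPM at day 20, so the groups did not overlap. The log2 fold change was 3.47 ± 0.85 (edgeR adjusted p = 0.0168), and 1.76 without the cells that carried other markers (adjusted p = 0.301). Without day 0 replicate 1 or 2 it was 3.01 or 3.08 and missed the threshold (edgeR adjusted p = 0.0524 and 0.0548), and without day 0 replicate 3 it was 5.19. Over 24 alternatives it ranged from 1.16 to 5.37 and passed in 19. Apoe moved the same way in other cells. Pooled by day, it stood at 4871, 91053 and 36964 CPM in microglial cells under the threshold and at 1250, 31496 and 33416 CPM in cells outside the gate.

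Lyz2 (chr10:117277331-117282321, minus strand) stood at 1775, 796 and 1191 CPM at day 0, at 8207, 14225 and 3911 CPM at day 7, and at 3046, 2189 and 5833 CPM at day 20. The groups did not overlap (log2 fold change 2.17 ± 0.48, edgeR adjusted p = 0.0121). Fcrls, an Fc receptor-like gene of microglia, rose from 35.5, 126 and 47.6 CPM to 636, 639 and 309 CPM at day 7 and to 350, 373 and 1207 CPM at day 20 (3.01 ± 0.68, adjusted p = 0.0121). Leaving out 1 library kept both directions, but Lyz2 missed the threshold without day 0 replicate 2 (1.96, edgeR adjusted p = 0.0667) or 3 (2.13, 0.052) and Fcrls without day 0 replicate 1 (2.66, 0.0601) or 3 (2.85, 0.0502). Neither gene passed without the cells that carried other markers. Over 24 alternatives the log2 change was 1.04 to 3.98 for Lyz2 and 1.83 to 3.79 for Fcrls, and each passed in 18. Wfdc17, Ifitm3, an interferon-inducible membrane protein gene, Prdx1, an antioxidant enzyme gene, and Itm2b rose by log2 values of 3.28, 2.66, 1.29 and 0.82. When single libraries were left out, Itm2b passed in only 2 of 9 fits (edgeR adjusted p up to 0.23) and Prdx1 in 5 of 9 (up to 0.095). Pooled by day, Fcrls stood at 86.4, 598 and 624 CPM in microglial cells under the threshold. The class by light term did not pass for Apoe (0.44, edgeR adjusted p = 0.994), Lyz2 (0.67, adjusted p = 0.934) or Fcrls (0.46, adjusted p = 0.994). The rise of these 3 genes was thus not shown to be larger in both-transcript than in microglial cells.

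Among the genes that fell was Hmox1 (chr8:75093621-75100589, plus strand), the heme oxygenase induced by oxidative stress. It stood at 1314, 1760 and 1096 CPM at day 0, at 42.0, 24.6 and 0 CPM at day 7, and at 125, 505 and 201 CPM at day 20. All libraries after light were below all of day 0, and the log2 fold change was -3.71 ± 0.46 (edgeR adjusted p = 0.00178). Without the cells that carried other markers it was -4.32 and still passed (adjusted p = 0.0018). Over 24 alternatives the log2 fold change ranged from -4.88 to -1.52 and passed in 22. Pooled by day, Hmox1 stood at 202, 35.2 and 62.4 CPM in microglial cells under the threshold, from 77, 1 and 4 UMIs.

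Of 16 immediate-early genes tested, 13 fell in the mean of day 7 and day 20, with a median log2 change of -2.48 against -0.04 over all 581 genes. The fall was uneven between these days. By library, the immediate-early list summed to 36028, 43943 and 48638 CPM at day 0 and to 5318, 3475 and 5315 CPM at day 7. At day 20 it summed to 34726, 19807 and 6328 CPM. Klf4, Maff and Junb fell by 4.08, 3.88 and 2.50 on the log2 scale, and Egr1, Fos and Jun by 2.48, 1.70 and 2.49. With single libraries left out, Klf4 passed in all 9 fits and Maff in 7 of 9 (edgeR adjusted p up to 0.0564). Of 11 inflammatory and NF-kB genes 9 fell (median -2.52), among them Il1a by 3.49 and Tnf by 2.52, while Il1b had a log2 change of 0.01 (edgeR adjusted p = 0.992). Taken by day, Il1a changed by -5.73 at day 7 (edgeR adjusted p = 0.00428) and by -1.25 at day 20 (adjusted p = 0.482). Of 7 heat shock genes 3 fell, including Hspa1a with a log2 change of -4.27. Day 0 was also the time point with the largest share of cells holding markers of other cell types, whose part in these changes was not tested beyond the count without them. Pooled by day, microglial cells under the threshold had 5982, 352 and 842 CPM of Junb and 1349, 176 and 249 CPM of Ier2. Cells outside the gate had 1205, 2274 and 1786 CPM of Junb. Neither the class by light term for Junb (1.33, edgeR adjusted p = 0.932) nor that for Ier2 (1.39, adjusted p = 0.694) passed.

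Rod transcripts fell too, with 5 of 5 tested rod markers lower (median -3.90). Pde6g, a subunit of the rod phosphodiesterase, stood at 746, 419 and 5669 CPM at day 0, at 192, 73.7 and 206 CPM at day 7 and at 74.9, 48.1 and 134 CPM at day 20, without overlap (log2 fold change -4.40 ± 0.76, edgeR adjusted p = 0.00434). Day 0 replicate 3 was far above the other libraries, and without it the value was -2.44 (adjusted p = 0.03). Rods are the cells that Arr1-/- mice lose in light.

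Of 14 homeostatic microglia genes outside the selection, Fcrls rose and 5 fell (among them Csf1r, Cst3, Il10ra and Selplg), with a median of -0.66. Of 12 disease-associated genes Apoe and the cathepsin gene Ctsb rose and Ctsl fell (median 0.32), while Trem2, a lipid-sensing receptor gene, had a log2 change of -0.23 (edgeR adjusted p = 0.526). Of 4 monocyte and macrophage genes Ifitm3, Lyz2 and Ms4a7 rose and Klf2 fell. Among 7 chemokines Ccl5 rose and 2 fell, including Ccl4 by 2.41. Ccl5 had 0 UMIs in every day 0 library, 279, 18 and 1 at day 7 and 17, 242 and 0 at day 20. Day 7 replicate 1 and day 20 replicate 2, which held most of its UMIs, also held 195 and 40 of the 257 T and NK cell marker UMIs, whose part in this rise was not tested. Antigen presentation genes outside the rule did not pass, with 0 of 4 class II genes (median 0.12) and 0 of 7 class I genes (median 0.26), for example 0.60 ± 0.26 for B2m (adjusted p = 0.14). None of 3 interferon response genes passed.

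**Figure D5:**
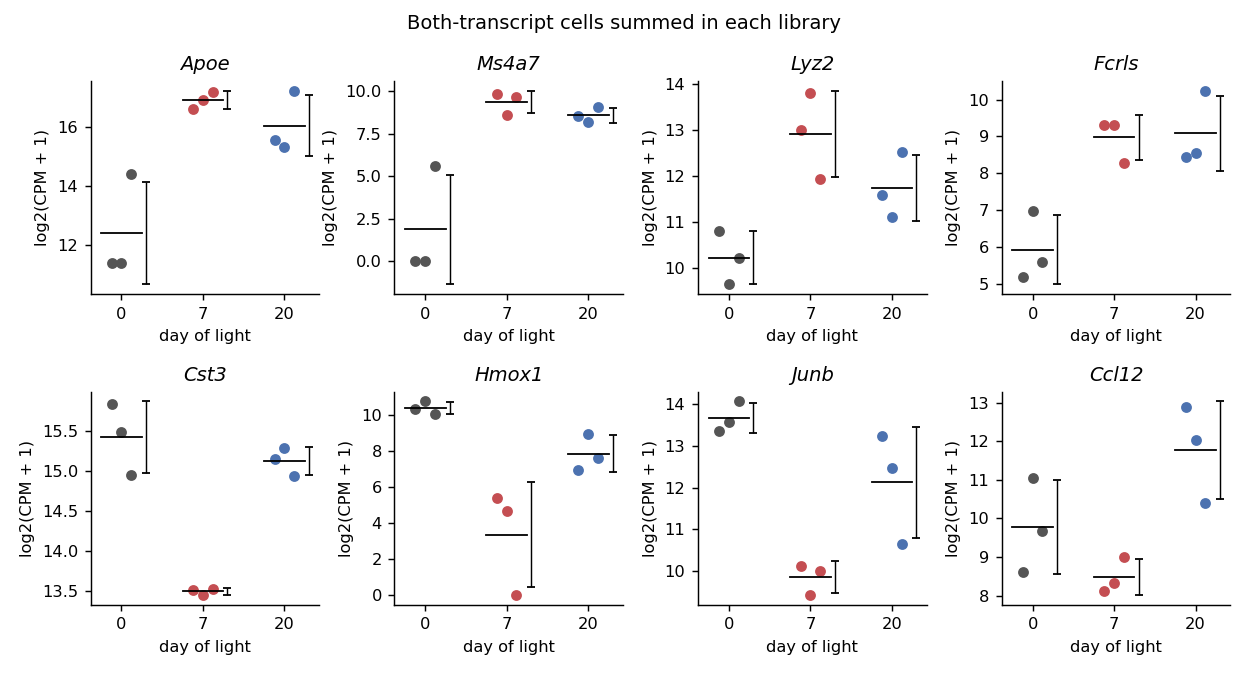
Points give log2(CPM + 1) of 8 genes in both-transcript cells summed per library, by day of light, with the mean and SD of 3 libraries. Apoe, Ms4a7, Lyz2 and Fcrls are higher in all libraries after light than at day 0, Hmox1 is lower, Cst3 is lowest at day 7, and Junb and Ccl12 are higher at day 20 than at day 7.

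From day 7 to day 20, 3 homeostatic genes (Cst3 and Csf1r among them) and 3 immediate-early genes (Junb, Ier2 and Klf2) rose. Of 581 genes, 15 passed (2.58%), 14 of them higher at day 20 (2.41%) and 1 lower (0.172%), each with an edgeR adjusted p of 0.0486. Leaving out any library except day 20 replicate 3 gave 0 genes by edgeR (68 to 194 at an unadjusted p under 0.05), and leaving out day 20 replicate 3 gave 41. All 15 genes kept their direction each time, with log2 fold changes of 1.45 to 1.67 for Cst3 and 2.00 to 2.86 for Junb. The replicate block also gave 0, and DESeq2 gave 47. Over all 24 alternatives the log2 fold change ranged from 0.43 to 1.72 for Cst3 and from 0.47 to 3.25 for Junb. It ranged from 0.34 to 3.91 for Klf2 and from 0.29 to 4.20 for Ppp1r15a. Each of these genes passed in 8 or 9 of the alternatives.

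Cst3 (chr2:148871722-148875692, minus strand), the protease inhibitor cystatin C and among the most abundant transcripts of microglia, stood at 11706, 11154 and 11732 CPM at day 7 and at 36481, 40083 and 31445 CPM at day 20. The day 0 libraries had 58370, 46019 and 31534 CPM. The groups of day 7 and day 20 did not overlap (log2 fold change 1.64 ± 0.35), as was so for 117 of the 581 genes tested (20.1%). Csf1r also rose, by a log2 value of 1.41, and 3 of 14 homeostatic genes passed (median 1.01 against 0.07 over all genes). Microglial cells under the threshold, pooled by day, moved the same way from day 7 to day 20. Their Cst3 went from 14208 to 35218 CPM and their Csf1r from 739 to 1232 CPM. Whether the change from day 7 to day 20 differed between the classes was not tested.

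Ccl12, a chemokine that acts on Ccr2, stood at 276, 319 and 515 CPM at day 7 and at 7516, 4185 and 1341 CPM at day 20, without overlap (3.73 ± 0.72). Junb stood at 1123, 688 and 1029 CPM and at 9638, 5700 and 1609 CPM (2.59 ± 0.54). Kdm6b, Klf2, Ppp1r15a, Hmox1 and Ier2 rose by 3.33, 3.32, 3.24, 3.05 and 1.73. Kdm6b had 9, 0 and 0 UMIs in the day 7 libraries and 24, 24 and 4 in those of day 20, and its log2 change was 6.68 without day 7 replicate 1. That of Hmox1 was 2.03 without day 20 replicate 2. Day 20 replicate 3 was the lowest of its group for both Ccl12 and Junb. Pooled by day, microglial cells under the threshold went from 246 to 1481 CPM of Ccl12 and from 352 to 842 CPM of Junb. Cells outside the gate went from 68.9 to 765 CPM of Ccl12 (1 and 12 UMIs).

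By list, 3 of 16 immediate-early genes (median 2.33), 2 of 11 inflammatory genes (2.65) and 1 of 7 chemokines (1.71) passed. The single gene that fell was Apoc1, an apolipoprotein gene next to Apoe, which stood at 606, 344 and 617 CPM at day 7 and at 49.9, 24.1 and 67.0 CPM at day 20 (log2 fold change -3.67 ± 0.68). In microglial cells under the threshold, pooled by day, Apoc1 went from 1055 to 62.4 CPM (30 and 4 UMIs). Bst2, the interferon-induced tetherin gene, was at -1.40 ± 0.40 (adjusted p = 0.0676, edgeR) and did not pass. No list of antigen presentation genes had a member that passed, with medians of 0.16 for 4 class II genes and -0.37 for 7 class I genes.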

How the data were processed

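Files held UMI counts per gene and cell barcode, as deposited by the authors without normalization; the submitters' processing notes name Cell Ranger and mm10, and the extraction labels give 3′ version 2 chemistry. Titles give time in hours and treatment labels in days, which were used. Members, gene lists and tests were chosen with earlier results of these data known. Each barcode was kept in the library with its highest total. No doublet caller was run, and an alternative left out the deepest 5% of cells. Cells were thinned without replacement to 612 UMIs. UMI counts were summed over cells per library and class (at least 5 cells) and tested with edgeR 4.0.16 (filterByExpr, TMM, quasi-likelihood, Benjamini-Hochberg threshold 0.05, R 4.3.3), with 1 design for all 9 libraries and a mean of day 7 and day 20, or with library as a block between classes. The 16 rule genes stayed in the fits and out of the counts of calls. CPM per library in gene comparisons use TMM-scaled totals, and CPM by class or pooled by day use plain totals. Exact permutation tests over libraries, two-sided, compared shares and summed levels (scipy 1.17.1). Named genes were the up to 8 called genes with the largest change per direction and separated libraries (same sign in every library between classes). Where fewer than 4 passed in a direction, the 4 of smallest p were named, and list members were named too. Trem2 and other genes beyond that rule were named after their values were seen. Genes of near-identical families (H2 genes, Hspa1a, Bcl2a1b, Bcl2a1d, Ccl3 and Ccl4, crystallins) may share reads. The symbols Clec7a, Ighm, Ighd, Igkc, Iglc2, Trac, Trbc1 and Trbc2 of the lists were not analysed here, and results on a few genes are not reported here. Tested on simulated data, the fits recovered 54.6% (against MHCII cells), 95.2% (against microglial cells), 65.2% (light against day 0) and 54.7% (day 20 against day 7) of tested genes changed by 2 on the log2 scale.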

Additional observations from a re-analysis of the deposited data

How the results depend on the processing

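The rise in the share of both-transcript cells after light kept its direction and passed the unadjusted threshold in all 22 alternatives (13.1 to 45.9 points, exact permutation p 0.0119 to 0.037), and the fall from day 7 to day 20 kept its direction (-18.1 to -4.08 points). Without single libraries these were 26.96 to 32.4 and -18.1 to -10.1 points, and the log2 difference in microglial-gene CPM of MHCII cells was -1.40 to -0.98. That difference passed at an MHCII threshold of 1 UMI (-1.35, exact permutation p = 0.0357) and without the deepest 5% of cells (-1.55, p = 0.0119), and was -0.13 in deposited counts (p = 0.726), the range over 17 alternatives being -1.55 to -0.13. It rests on genes of the selection, so it is given as a description and no conclusion is drawn from it. Counts of genes depended on the setting, and the causes were not tested. Those in deposited counts come from libraries that share barcodes and are not independent. Without single libraries, edgeR called 0 to 0 genes against MHCII cells, 5 to 34 against microglial cells, 50 to 141 after light and 0 to 41 between day 20 and day 7. Against microglial cells the count was 7 without day 0 replicate 2, 17 without day 7 replicate 2 and 34 without day 20 replicate 3. After light it was 50 without day 0 replicate 2, 53 without day 7 replicate 1 or 2, and 141 without day 7 replicate 3.

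Against MHCII cells (1 gene), the count was 206 in deposited counts, 5 with thinned cells, 4 at a minimum of 400 genes, 0 at a mitochondrial maximum of 5% (67 at an unadjusted p under 0.05, edgeR), 0 at a microglial threshold of 2 UMIs (30), 6 without the deepest 5% of cells, 3 without cells rich in other markers, 10 by DESeq2, 22 with no filter beyond 1 UMI and 16 with at least 1 cell per library. Against microglial cells (11 genes), it was 52 in deposited counts, 0 with thinned cells (21), 1 at 400 genes, 92 at an MHCII threshold of 1 UMI, 3 at a microglial threshold of 2 UMIs, 20 by DESeq2, 6 with no filter and 2 with at least 10 cells per library. After light (96 genes), it was 12 in deposited counts, 167 and 1 at MHCII thresholds of 1 and 4 UMIs, 4 without cells rich in other markers and 4 with at least 10 cells.

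Between day 20 and day 7 (15 genes), edgeR called 0 in deposited counts (42 at an unadjusted p under 0.05), at 400 genes (123), at an MHCII threshold of 4 UMIs (123), at a microglial threshold of 2 UMIs (140) and with at least 10 cells per library (235), 35 at a mitochondrial maximum of 5%, 43 at an MHCII threshold of 1 UMI, 1 without the deepest 5% of cells, 24 without cells rich in other markers, and 47 by DESeq2. With the replicate block it called 0 (107) there and 93 after light, and the rise in the share had an exact permutation p = 0.037. The same replicate numbers did not pair the libraries (correlations -0.149 to 0.160, 2 of 9 above 0.1). Of 715 values of named genes under alternatives, 461 stayed on their side of the threshold, 254 lost it and 0 turned. Day comparisons of genes could not be fitted with thinned cells, since no day 0 library then had 5 both-transcript cells, and the summed microglial CPM was not computed with thinned cells or at a microglial threshold of 2 UMIs. Day 0 rested on 28 both-transcript cells and day 7 replicate 3 on 7, which limits what the day comparisons can show.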

Other observations

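Complement genes were abundant in both-transcript cells at every time point, and also in the other classes. Pooled over all days, the complement list stood at 18291 CPM in both-transcript cells and 21580 CPM in microglial cells under the threshold. In MHCII cells with no microglial UMI it stood at 12162 CPM. In both-transcript cells the list summed to 10744 UMIs, led by C1qb, a chain of the initiating component C1q. It stood at 23252, 20027 and 13904 CPM in the day 0 libraries, at 13630, 15283 and 15384 CPM at day 7, and at 21839, 25463 and 25467 CPM at day 20. All 3 libraries of day 20 lay above all 3 of day 7, and day 0 overlapped both. C1qb by itself had a log2 difference of 0.58 ± 0.26 between day 20 and day 7 that did not pass (edgeR adjusted p = 0.238).

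Interferon response genes summed to 1662 UMIs, led by Ly6e, and stood at 1482, 2557 and 913 CPM at day 0, at 3948, 3382 and 2814 CPM at day 7, and at 1942, 2023 and 2960 CPM at day 20. The day 7 libraries lay above those of day 0, and day 20 overlapped both. Cell cycle genes summed to 409 UMIs in 127 cells, led by the tubulin gene Tubb5, while Mki67, a marker of dividing cells, and Ccna2 were at 0, which allows at most 3 of 587386 UMIs for each. Markers of other retinal neurons summed to 224 UMIs, endothelial and pericyte markers to 41 and erythrocyte markers to 19. No test was run on these sums.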
